A study of Mus musculus with 19 samples.

Results

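IAPLTR2 is a group of long terminal repeats (LTRs) of intracisternal A particles (IAPs), a family of mouse endogenous retroviruses in the ERVK class. Its members were taken as every listed retrotransposon subfamily whose name begins with IAPLTR2. The rule found 4 of 259 subfamilies: IAPLTR2_Mm, IAPLTR2a, IAPLTR2b and IAPLTR2a2_Mm. RNA was measured by mRNA-seq in 19 libraries of spermatogonia sorted by EpCAM, a surface protein of undifferentiated spermatogonia, from testes at postnatal day 7 (P7). The *Pld6* line gave 3 wild-type (WT), 3 heterozygous and 5 homozygous knockout (KO) libraries, and the *Dnmt3l* line gave 2, 3 and 3. Both lines were backcrossed to C57BL/6J, and each library came from a separate mouse. The methods text gives the *Dnmt3l* WT and heterozygous numbers the other way round, and the sample labels were followed here.

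An LTR flanks each end of an endogenous retrovirus and carries its promoter, so that transcripts begin in one LTR, run through the internal region that encodes the viral proteins, and end in the other LTR. LTRs also persist alone in the genome after recombination has removed the internal region. In male germ cells, DNA methylation takes part in silencing retrotransposons such as IAPs. DNMT3L, a cofactor without catalytic activity of its own, helps to establish new methylation before birth. The paper reports that LTRs flanking IAP internal regions stayed highly methylated in *Dnmt3l* KO spermatogonia, while LTRs standing alone were severely demethylated. Its text does not say whether IAPLTR2 copies were among these LTRs. PLD6 is a mitochondrial protein needed to make PIWI-interacting RNAs (piRNAs). These small RNAs guide the cleavage of retrotransposon transcripts and the methylation of retrotransposon DNA. The lines compared here are mutant in one or the other of these pathways.

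Expression is given as deposited, in RPM, the number of reads on the consensus sequence of a subfamily scaled to a fixed number of mapped reads. RPM is not corrected for sequence length, so levels of different subfamilies are not ranked here. Reads that match more than 1 IAPLTR2 consensus may have been placed on either, and the split among members is uncertain to that extent. A change in RPM may come from more RNA per cell or from a different mix of sorted cells, which cannot be told apart in bulk RNA. Genes were not analysed here, so neither the loss of the targeted transcript nor the cell type was checked. The paper itself reports high germ-cell purity after sorting and spermatogonial marker genes that were largely unaffected in the mutants. Summed over all subfamilies, the 11 WT and heterozygous libraries held between 2103 and 4413 RPM, the *Pld6* KO libraries between 7178 and 8426, and the *Dnmt3l* KO libraries between 12659 and 14603. The *Pld6* heterozygous library of replicate 1 stood apart, with 159 subfamilies at 0 against 60 to 90 in the other 18 libraries. All 4 members passed the filter for testing, which kept 114 subfamilies with at least 1 RPM in at least 2 libraries. IAPLTR2_Mm and IAPLTR2a2_Mm reached 1 RPM in all 11 libraries without a KO, IAPLTR2b in 9 and IAPLTR2a in 8.

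IAPLTR2_Mm, IAPLTR2a and IAPLTR2b were up-regulated in both KO lines, whereas the KO and WT values of IAPLTR2a2_Mm were far closer. On the scale (KO mean RPM + 1)/(WT mean RPM + 1), the first 3 were up-regulated 6.96- to 9.28-fold in *Pld6* KO and 14.0- to 29.2-fold in *Dnmt3l* KO. The same ratio for IAPLTR2a2_Mm was 1.54 and 1.88, and only the second passed the test. Without the added 1, KO over WT means gave 9.83 for IAPLTR2_Mm, 13.8 for IAPLTR2a and 15.4 for IAPLTR2b in *Pld6* KO. In *Dnmt3l* KO they gave 19.1, 20.9 and 41.7, and for IAPLTR2a2_Mm 1.69 and 2.04 in the 2 lines.

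**Figure D1:**
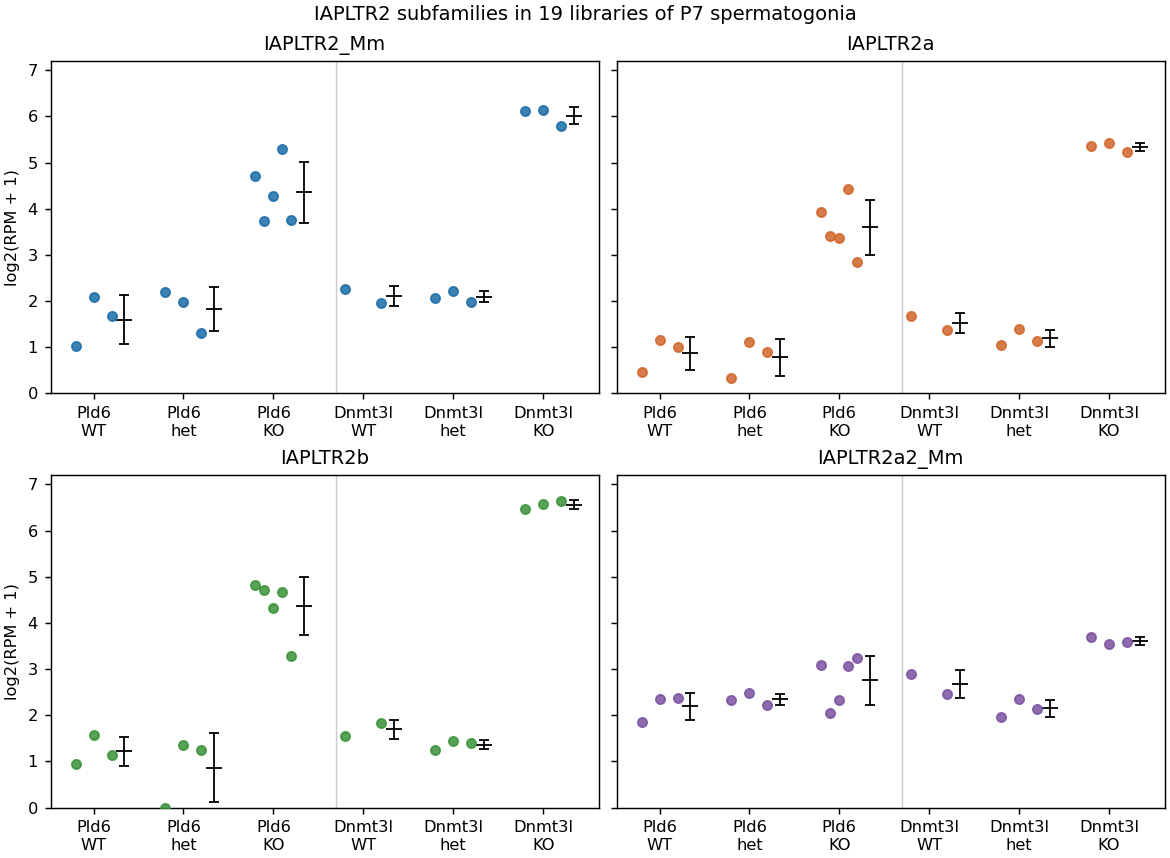
Each point is 1 library, placed by genotype group on the x axis and by log2(RPM + 1) on the y axis; dashes and bars to the right of each group give its mean and SD. In the *Pld6* line, the KO points of IAPLTR2_Mm, IAPLTR2a and IAPLTR2b lie clear of all WT and heterozygous points, while those of IAPLTR2a2_Mm overlap them; the 3 *Dnmt3l* KO points lie above every other point in all 4 panels.

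In *Pld6* KO spermatogonia, IAPLTR2b was at 27.1, 25.1, 19.1, 24.5 and 8.74 RPM (replicates 1 to 5), against 0.92, 1.95 and 1.21 in WT. The lowest KO library, replicate 5, still lay above every WT and heterozygous library. The means were 20.9 ± 7.41 (SD, n = 5) and 1.36 ± 0.531 (SD, n = 3), and the log2 fold change on log2(RPM + 1) was 3.14 ± 0.32 (SE, limma adjusted p = 1.4e-07).

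IAPLTR2_Mm stood at 25.3, 12.3, 18.3, 38.0 and 12.5 RPM in the *Pld6* KO libraries and at 1.05, 3.27 and 2.18 in WT. Its highest library was replicate 4 and its lowest replicate 2, with no overlap between KO and WT. The mean rose from 2.17 ± 1.11 to 21.3 ± 10.8 RPM (SD), with a log2 fold change of 2.75 ± 0.32 (SE, limma adjusted p = 5.0e-07).

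IAPLTR2a was at 14.3, 9.64, 9.30, 20.5 and 6.25 RPM in *Pld6* KO and at 0.38, 1.22 and 1.00 in WT. Replicate 4 was again the highest, and the groups did not overlap. Its log2 fold change was 2.73 ± 0.28 (SE, limma adjusted p = 1.6e-07), and WT values this close to 1 RPM are compressed by the pseudocount of 1.

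IAPLTR2a2_Mm differed from these 3. Its *Pld6* KO libraries held 7.55, 3.14, 4.06, 7.35 and 8.51 RPM, and its WT libraries 2.62, 4.09 and 4.18. Replicates 2 and 3 of the KO lay within the WT range and the other 3 above it. The log2 fold change of 0.57 had a 95% interval from 0.05 to 1.09 and did not pass the test (limma adjusted p = 0.0931). Without KO replicate 2 it did, at 0.74 (limma adjusted p = 0.0122).

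Hence 3 of the 4 members were called higher in *Pld6* KO and none lower, where 30.7% of the 114 tested subfamilies were called higher. For the same 3 members every KO library exceeded every WT library, which held for 35.1% of all tested subfamilies, or 31.6% with the heterozygous libraries included. The exact two-sided permutation test over the 5 KO and 3 WT libraries gave p = 0.0357, the smallest it allows, for each of the 3, and p = 0.214 for IAPLTR2a2_Mm. Ranked by fold among all 259 subfamilies, IAPLTR2b was number 8, IAPLTR2_Mm 10, IAPLTR2a 11 and IAPLTR2a2_Mm 37.

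The *Pld6* KO libraries did not rank the members alike. Replicate 4 was the highest of the 5 for IAPLTR2_Mm and IAPLTR2a, and replicate 1 for IAPLTR2b. Replicate 5 was the lowest for IAPLTR2a and IAPLTR2b, yet it was the highest for IAPLTR2a2_Mm. For IAPLTR1_Mm, an LTR of full-length young IAPs, the same library was lowest, at 19.2 RPM against 63.1 to 87.4 in the other 4. It was also the lowest for the internal region IAPEz-int, at 447.6 RPM against 1272 to 1523. The log2 fold changes of IAPLTR2_Mm, IAPLTR2a and IAPLTR2b stayed past the threshold when any one of the 8 *Pld6* KO and WT libraries was left out.

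**Figure D2:**
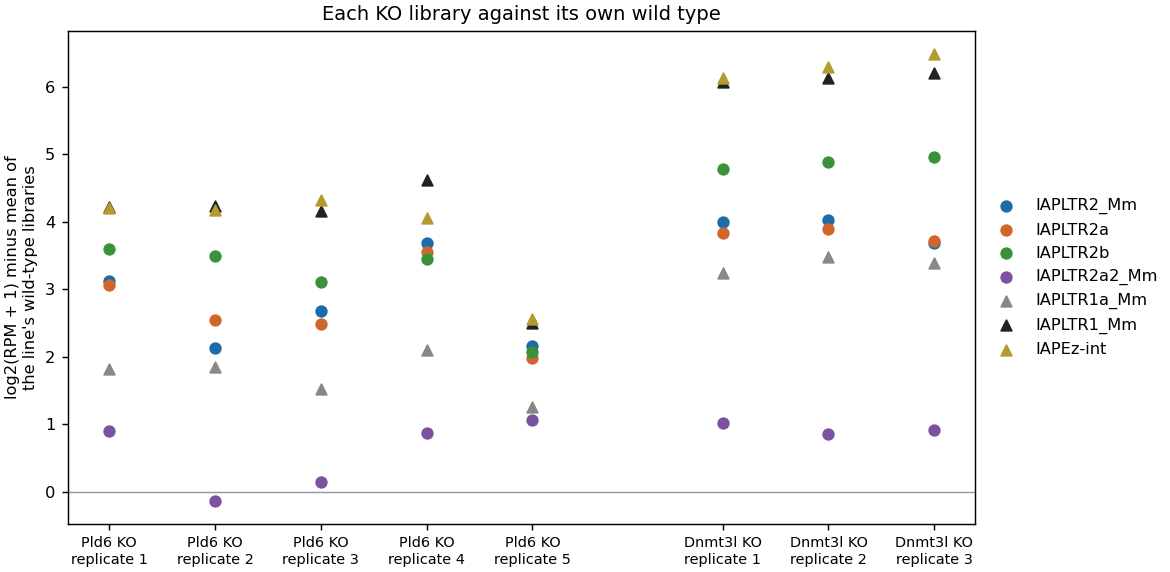
For each KO library on the x axis, points give log2(RPM + 1) minus the mean of the WT libraries of its own line; circles are the IAPLTR2 members and triangles are IAPLTR1_Mm, IAPLTR1a_Mm and IAPEz-int. IAPLTR2_Mm and IAPLTR2a sit close together in all 8 libraries, IAPLTR2b is above both in the 3 *Dnmt3l* KO libraries, and IAPLTR2a2_Mm is near 1 or lower throughout, while *Pld6* KO replicate 5 is the lowest of its group for IAPLTR2a, IAPLTR2b and the 3 comparators.

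In *Dnmt3l* KO spermatogonia, IAPLTR2b reached 87.5, 94.6 and 99.0 RPM, against 1.92 and 2.57 in WT. The KO libraries lay close to each other and far above all controls. The mean went from 2.25 ± 0.460 (SD, n = 2) to 93.7 ± 5.83 (SD, n = 3), a log2 fold change of 4.87 ± 0.40 (SE, limma adjusted p = 6.7e-09).

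IAPLTR2_Mm was at 68.1, 69.1 and 54.7 RPM in *Dnmt3l* KO and at 3.81 and 2.88 in WT, a log2 fold change of 3.90 ± 0.40 (SE, limma adjusted p = 9.1e-08). IAPLTR2a was at 40.2, 41.7 and 36.8 RPM in the KO and at 2.20 and 1.58 in WT, a log2 fold change of 3.82 ± 0.36 (SE, limma adjusted p = 3.1e-08). For both, replicate 3 was the lowest of the KO libraries, although it was the highest for IAPLTR2b.

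IAPLTR2a2_Mm held 11.94, 10.58 and 11.03 RPM in *Dnmt3l* KO and 6.44 and 4.51 in WT. The groups did not overlap, and its log2 fold change of 0.93 ± 0.31 (SE, limma adjusted p = 0.0239) was the smallest of the 4. This call was lost without WT replicate 2 (0.71, limma adjusted p = 0.202), without KO replicate 1 (0.88, limma adjusted p = 0.0592), and after rescaling the libraries by median ratios (0.33, limma adjusted p = 0.524). With that rescaling the median over all 114 subfamilies was lower by 0.52 in *Dnmt3l* KO and by 0.41 in *Pld6* KO (log2 fold change). IAPLTR2_Mm, IAPLTR2a and IAPLTR2b stayed past the threshold in both lines after it.

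In all, 4 of 4 members were called higher in *Dnmt3l* KO, where 38.6% of tested subfamilies were called higher and 1.75% lower. Every KO library exceeded every WT library for the 4 members and for 67.5% of all tested subfamilies, and every WT and heterozygous library for the 4 members and for 59.6%. The exact permutation test of 3 against 2 libraries cannot give a p below 0.2. By fold, IAPLTR2b ranked number 5 of 259, IAPLTR2_Mm 6, IAPLTR2a 7 and IAPLTR2a2_Mm 35.

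The shares of the members in the summed IAPLTR2 reads differed with genotype, least clearly for IAPLTR2_Mm. IAPLTR2a2_Mm gave 46.8% ± 7.15 (SD, n = 3) of these reads in *Pld6* WT, between 38.8% and 52.7%, and 41.9% ± 4.05 (SD, n = 2) in *Dnmt3l* WT. In *Pld6* KO it gave 11.2% ± 7.06 (SD, n = 5), with replicate 5 the highest at 23.6%, and in *Dnmt3l* KO 5.37% ± 0.434 (SD, n = 3). The KO and WT ranges of this share did not overlap in either line. IAPLTR2b went the other way, from 17.0% to 35.1% in the *Pld6* line and from 17.8% to 45.0% in the *Dnmt3l* line. IAPLTR2a went from 10.3% to 19.4% and from 14.5% to 18.97%, and IAPLTR2_Mm from 25.9% to 34.3% and from 25.7% to 30.6%. The *Pld6* KO range of IAPLTR2_Mm, 24.5% to 42.1%, overlapped that of WT, 21.1% to 31.1%. Its mean share in *Dnmt3l* heterozygotes was 34.2%, above that in the KO. These shares are descriptions with no test, and since they add up to the whole, a higher share of one goes with lower shares of others.

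**Figure D3:**
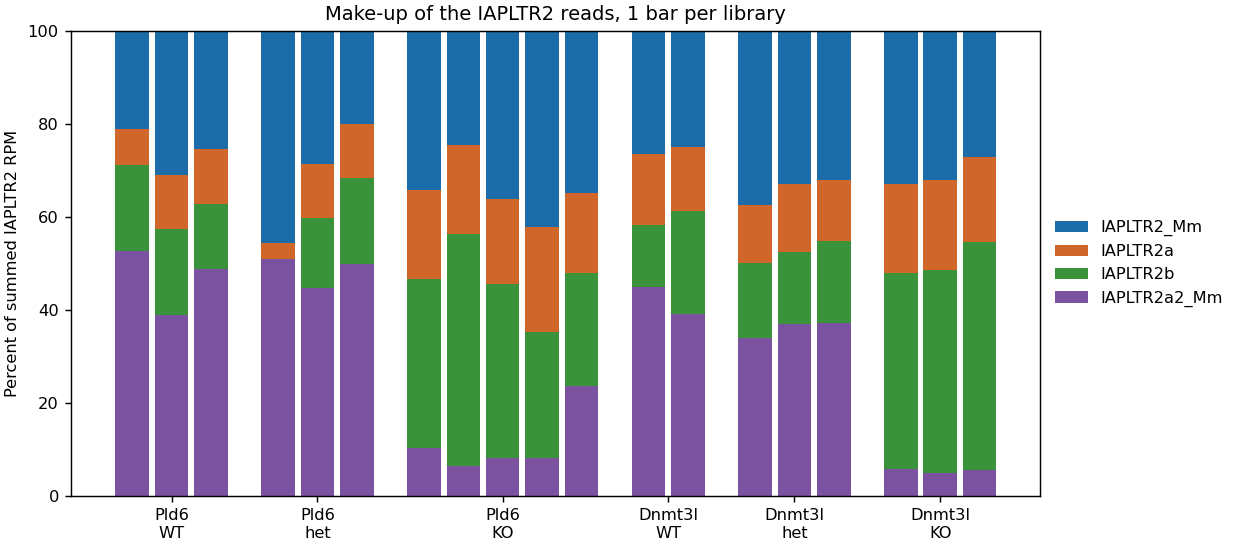
Each bar is 1 library, grouped by genotype on the x axis, and its segments give the percent of the summed IAPLTR2 RPM on each member. IAPLTR2a2_Mm fills between 33.99% and 52.7% of each WT and heterozygous bar, between 6.26% and 23.6% in *Pld6* KO and between 4.90% and 5.75% in *Dnmt3l* KO.

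Whether members changed unequally was tested within libraries, from the log2 ratio of each pair of RPM + 1 values. These ratios share sequences and libraries, so they are not independent tests. Against IAPLTR2a2_Mm, the log2 ratio of IAPLTR2_Mm was higher in *Pld6* KO than in WT by 2.19 and that of IAPLTR2a by 2.16, and the log2 ratio of IAPLTR2a2_Mm to IAPLTR2b differed by -2.58. Each of these ratios separated the 5 KO from the 3 WT libraries (exact two-sided permutation p = 0.0357, the smallest possible, adjusted p = 0.0459 over the 18 ratios of the comparison). With a pseudocount of 0.1 or 0.5, or after rescaling, they kept their direction, at 2.20 to 2.57 for IAPLTR2_Mm over IAPLTR2a2_Mm, 2.24 to 2.98 for IAPLTR2a over it, and -3.14 to -2.61 for IAPLTR2a2_Mm over IAPLTR2b. The adjusted p then rose to at most 0.0714, because fewer of the 18 ratios reached the smallest p.

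For IAPLTR2_Mm and IAPLTR2a no difference was detected. Their log2 ratio was 0.75 ± 0.248 (SD, n = 5) in *Pld6* KO and 0.73 ± 0.193 (SD, n = 3) in WT, a difference of 0.03 (exact permutation p = 0.929). In the *Dnmt3l* line the difference was 0.09. The value depended on the pseudocount: in the *Pld6* line it went from 0.03 at a pseudocount of 1 to -0.42 at 0.1. Without a pseudocount, the ratio of mean RPM in *Pld6* KO to that in WT was 9.83 for IAPLTR2_Mm and 13.8 for IAPLTR2a. No difference was detected between IAPLTR2b and either of them in *Pld6* KO, where the log2 ratio of IAPLTR2_Mm to IAPLTR2b differed from WT by -0.39 (exact permutation p = 0.286) and that of IAPLTR2a to IAPLTR2b by -0.42 (exact permutation p = 0.179). In *Dnmt3l* KO the same ratios differed by -0.97 and -1.06, with every KO library below both WT libraries, in a design of 3 against 2 that cannot pass the threshold. With the *Dnmt3l* heterozygous libraries pooled with WT as controls they differed by -1.15 and -1.05 and passed (exact permutation p = 0.0357, adjusted p = 0.0378).

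The members were set beside other IAP LTRs, IAPLTR1_Mm and IAPLTR1a_Mm, and the IAP internal region IAPEz-int. Which LTRs flank the copies behind the IAPEz-int reads was not examined. On the scale used for fold, IAPLTR1_Mm was up-regulated 17.1-fold in *Pld6* KO and 69.9-fold in *Dnmt3l* KO, IAPEz-int 15.7- and 79.4-fold, and IAPLTR1a_Mm 3.32- and 10.2-fold. IAPLTR2_Mm, IAPLTR2a and IAPLTR2b thus had values between those of IAPLTR1a_Mm and IAPLTR1_Mm in both lines.

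Relative to IAPLTR1a_Mm, the log2 ratios of IAPLTR2b, IAPLTR2_Mm and IAPLTR2a were higher in *Pld6* KO than in WT by 1.43, 1.04 and 1.02 (exact permutation p = 0.0357 each, adjusted p = 0.0459). Relative to IAPLTR1_Mm they differed by -0.80, -1.19 and -1.22, with exact permutation p = 0.0357, 0.0714 and 0.0357. Relative to IAPEz-int they differed by -0.72, -1.11 and -1.14 (exact permutation p = 0.0357 each). The ratios to IAPEz-int, which had a higher RPM, depended on the pseudocount: with 0.1 in place of 1 they were -0.08, -0.65 and -0.23. The log2 ratios of IAPLTR2a2_Mm to all 3 comparators were lower in *Pld6* KO, by -1.15 for IAPLTR1a_Mm, -3.30 for IAPEz-int and -3.38 for IAPLTR1_Mm (exact permutation p = 0.0357 each). In all, 14 of the 18 ratios passed in *Pld6* KO, where at least 13 must reach the smallest p for any to pass, and none passed with a pseudocount of 0.1 or 0.5 or after rescaling. With WT and heterozygous controls pooled, the ratios of IAPLTR2b to IAPLTR1_Mm and IAPEz-int did not pass.

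In *Dnmt3l* KO against WT, IAPLTR2b differed by -1.27 relative to IAPLTR1_Mm and by -1.43 relative to IAPEz-int, and IAPLTR2_Mm by -2.24 and -2.40. With heterozygous libraries added to the WT controls (3 against 5 libraries), these 4 differences were -1.10, -1.17, -2.26 and -2.32, and 17 of the 18 ratios passed (exact permutation p = 0.0357, adjusted p = 0.0378). The ratio of IAPLTR2_Mm to IAPLTR2a was the one that did not, at -0.10. Each pass was at the smallest possible p, and the ratios share sequences and libraries, so their number is not a count of separate results. Such ratios were not computed for other subfamilies. With all 4 members summed, IAPLTR2 made up 3.97% ± 0.765 (SD) of the RPM on the 25 listed IAP subfamilies in *Pld6* WT and 3.71% ± 1.05 in *Pld6* KO. It made up 6.15% ± 1.43 in *Dnmt3l* WT and 2.66% ± 0.346 in *Dnmt3l* KO. The *Pld6* WT and KO groups overlapped and the *Dnmt3l* WT and KO groups did not. *Dnmt3l* heterozygotes stood at 4.04% ± 0.290 (SD), from 3.71% to 4.23%, below both WT libraries at 5.14% and 7.16%.

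Of 11 other listed IAP LTRs, 7 were tested, and 4 were called higher in *Pld6* KO and 3 in *Dnmt3l* KO. Their median log2 fold changes were 1.16 and 0.55, against 2.74 and 3.86 for the 4 IAPLTR2 members and 0.26 and 0.50 for all 114 subfamilies. Of 10 IAP internal regions, 9 were tested, with 8 called higher in *Pld6* KO, 7 in *Dnmt3l* KO and medians of 1.75 and 1.67.

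All 3 *Dnmt3l* KO libraries lay above all 5 *Pld6* KO libraries for each of the 4 members, which held for 31.6% of all tested subfamilies (exact two-sided permutation p = 0.0357 each, the smallest possible). The difference was then taken between the log2 fold changes, each against the WT of its own line. IAPLTR2b was up-regulated more in *Dnmt3l* KO, by 1.73 ± 0.52 on the log2 scale (SE, limma adjusted p = 0.0369). IAPLTR2_Mm differed by 1.15 (95% interval 0.08 to 2.21, limma adjusted p = 0.157) and IAPLTR2a by 1.09 (0.13 to 2.04, limma adjusted p = 0.137). For IAPLTR2a2_Mm the difference was 0.36 (-0.47 to 1.19, limma adjusted p = 0.651).

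Thus 1 of 4 members was called for the difference between mutants, where 7.89% of tested subfamilies were called higher in *Dnmt3l* KO and 4.39% lower. The IAPLTR2b call was not stable. It passed in 7 of 11 other settings and in 5 of 13 fits that left out 1 library, with values between 1.45 and 1.87 and limma adjusted p from 0.00378 to 0.457. It was lost without *Dnmt3l* WT replicate 1 or 2, *Dnmt3l* KO replicate 1, 2 or 3, *Pld6* WT replicate 2 or 3, or *Pld6* KO replicate 3. Without *Pld6* KO replicate 4, IAPLTR2_Mm and IAPLTR2a passed as well, at 1.38 and 1.30. IAPLTR1_Mm, IAPEz-int and IAPLTR1a_Mm differed between mutants by 2.19, 2.44 and 1.66 (limma adjusted p = 0.00538, 0.00181 and 0.00181). Of the 18 ratios of members to each other or to these 3, 5 separated the KO groups completely (exact permutation p = 0.0357, the smallest possible, adjusted p = 0.129). These included IAPLTR2a2_Mm over IAPLTR2b, at -1.36, and IAPLTR2a over IAPLTR2a2_Mm, at 0.89. None could pass the adjustment unless at least 13 reached that p.

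**Figure D4:**
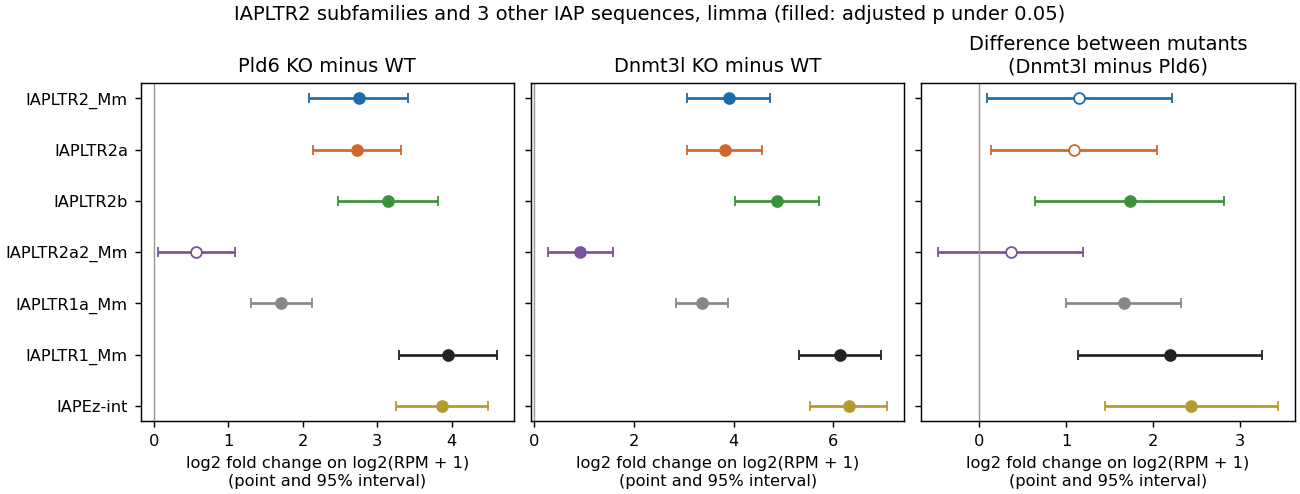
Points are limma log2 fold changes on log2(RPM + 1) with 95% intervals on the x axis, for the 4 IAPLTR2 members and 3 other IAP sequences on the y axis; filled points passed an adjusted p of 0.05. IAPLTR2a2_Mm lies at 0.57 and 0.93 where the other members lie between 2.73 and 4.87, and IAPLTR2b is the filled member in the panel for the difference between mutants.

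In heterozygotes of either line no member was called. IAPLTR2_Mm was at 3.62, 2.93 and 1.47 RPM in *Pld6* heterozygotes and at 3.22, 3.65 and 2.95 in *Dnmt3l* heterozygotes, and both sets overlapped their WT. IAPLTR2a2_Mm was at 4.03, 4.56 and 3.68 RPM in *Pld6* heterozygotes, overlapping WT. In *Dnmt3l* heterozygotes it was at 2.92, 4.08 and 3.41 RPM, against 6.44 and 4.51 in WT. IAPLTR2b was at 1.39, 1.72 and 1.62 RPM in *Dnmt3l* heterozygotes, against 1.92 and 2.57 in WT. IAPLTR2a was at 1.06, 1.62 and 1.21 RPM in the same libraries, overlapping WT in replicate 2. How many tested subfamilies separated *Dnmt3l* heterozygotes from WT was not counted. By log2 difference from WT in that line, IAPLTR2a2_Mm ranked number 114 of 114, IAPLTR2a 106 and IAPLTR2b 105. In *Pld6* heterozygotes IAPLTR2a was at 0.27, 1.17 and 0.86 RPM and IAPLTR2b at 0, 1.56 and 1.37, and the 0 came from replicate 1, the library with most subfamilies at 0. No tested subfamily was called in either comparison (0.0% of 114 by limma). An unadjusted p under 0.05 was reached by 4.39% of subfamilies in the *Pld6* line and 0.0% in the *Dnmt3l* line, and by no member.

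The intervals bound what these comparisons could show. Between heterozygotes and WT, the 95% intervals of the log2 difference ran from -0.51 to 0.97 for IAPLTR2_Mm and from -1.11 to 0.41 for IAPLTR2b in the *Pld6* line. In the *Dnmt3l* line they ran from -0.85 to 0.81 for IAPLTR2_Mm, from -1.17 to 0.52 for IAPLTR2b and from -1.18 to 0.12 for IAPLTR2a2_Mm. The upper ends lay below the KO log2 fold changes of IAPLTR2_Mm and IAPLTR2b, which were 2.75 or more. For IAPLTR2a the upper ends were 0.58 in the *Pld6* line and 0.42 in the *Dnmt3l* line, below its KO values of 2.73 and 3.82. For IAPLTR2a2_Mm the interval in the *Pld6* line, -0.43 to 0.73, included the KO value of 0.57. In the *Dnmt3l* line its upper end of 0.12 lay below the KO value of 0.93.

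The WT libraries of the *Dnmt3l* line had somewhat higher values than those of the *Pld6* line for all 4 members, by 0.48 to 0.65 on the log2 scale. None passed the test (limma adjusted p from 0.8997 to 0.991), where 0.877% of tested subfamilies were called and 7.02% had an unadjusted p under 0.05, and all 4 intervals included 0. The highest upper end was 1.40, for IAPLTR2a.

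Finally, the subfamilies outside IAPLTR2 with the most similar values across the 8 KO libraries were found by the root mean square difference in log2(RPM + 1) from the WT mean of the line, among 110 tested candidates. For IAPLTR2_Mm the nearest was MMERGLN_LTR, the LTR of an ERV1 family, at 0.72, followed by IAPLTR3-int at 0.87 and IAPLTR1a_Mm at 0.96. IAPLTR2a had the same 3 in the same order, at 0.63, 0.77 and 0.88. IAPLTR2_Mm and IAPLTR2a were nearer to each other, at 0.19, than to any of these.

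IAPLTR2b was nearest to IAPLTR1_Mm, at 1.03, then to IAPEz-int at 1.07 and MMERGLN_LTR at 1.13, and it lay at 0.81 from IAPLTR2_Mm and 0.79 from IAPLTR2a. IAPLTR2a2_Mm was nearest to LTRIS2, at 0.30, RLTR10D, at 0.35, and the L1 sequence L1Md_F3_3end, at 0.43. From the other IAPLTR2 members it was 2.51 to 3.23 away. The 8 libraries are shared by all of these sequences, so the distances are descriptions of these libraries.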

How the data were processed

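The authors prepared directional poly(A) mRNA-seq libraries, used hisat2 to place the reads on consensus sequences of mouse retrotransposons, and the deposited unit is RPM per subfamily, reads scaled to a fixed number of mapped reads; which reads that number counts is not given in the sources used here. Their processing notes also name Trim Galore and mm10, with no role. Among values up to 3 RPM, 62.0% to 92.2% per library fell on a common step (within 0.0051 RPM), so whole reads were not recovered, the depth is unknown, and no count test or counting interval was used. Replicate libraries held no identical pair.

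RPM was tested as log2(RPM + 1), so fold changes of low subfamilies are understated. Subfamilies with at least 1 RPM in at least 2 of 19 libraries (114 of 259) entered one limma 3.58.1 fit (R 4.3.3, trended variance, 6 groups, two-sided), with Benjamini-Hochberg adjustment over the 114 in each comparison and a threshold of 0.05. It was tested on simulated data with known changes. Single members and ratios were tested by exact permutation (scipy 1.17.1), ratios with adjustment over the 18 of a comparison. The limma p-values rest on a spread pooled over both lines, and the permutation p-values on the libraries compared.

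All 4 IAPLTR2 members are named, with IAPLTR1_Mm, IAPLTR1a_Mm and IAPEz-int as comparators and the 3 nearest patterns of each member over the 8 KO libraries; other IAPs are given as counts and medians. Members and lists were chosen with earlier results of these data known. Replicate numbers did not pair the *Pld6* libraries, and pairing in the *Dnmt3l* line could not be settled with 2 WT libraries. Alternatives were pseudocounts of 0.1 and 0.5, other filters, rescaling, other controls, a replicate block and leaving out each library; leaving out *Pld6* heterozygous replicate 1 was added after seeing the data. Consensus sequences, gene expression, methylation and chromatin were not analysed here.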

Additional observations from a re-analysis of the deposited data

Results flagged for a closer look

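IAPLTR2b rose more in *Dnmt3l* KO than in *Pld6* KO, each against its WT, by 1.73 in log2 (limma adjusted p = 0.0369). This call was not stable: it passed in 7 of 11 other settings and in 5 of 13 fits without 1 library. The same test separated the mutants for the 3 comparators, IAPEz-int by 2.44, IAPLTR1_Mm by 2.19 and IAPLTR1a_Mm by 1.66. IAPEz-int also had 1 *Pld6* KO library, replicate 5, far below the other 4: its gap to the next library was 0.767 of the whole range of the 5. In a single check, chance alone gives such a gap in about 1 group in 20. The check was run at both ends for the 4 members and the 3 comparators, and this rate does not allow for that. No IAPLTR2 member had such a gap in *Pld6* KO, the group large enough for this check.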

How the results depend on the processing

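IAPLTR2_Mm, IAPLTR2a and IAPLTR2b stayed higher and past the threshold in both KO lines in 11 of 11 other settings and without any single KO or WT library. IAPLTR2a2_Mm passed in *Dnmt3l* KO in 9 of 11 other settings (lost with no filter, limma adjusted p = 0.0507, and after rescaling) and in 3 of 5 fits without 1 library. In *Pld6* KO it passed in 0 of 11 and in 1 of 8. The number of members called for the difference between mutants, 1, became 0 with a pseudocount of 0.1 or 0.5, with no filter and after rescaling, 3 with heterozygous or with pooled WT and heterozygous controls, 2 with heterozygous controls without *Pld6* heterozygous replicate 1 (added after seeing the data), and 0 to 3 without 1 library; the cause was not tested. The number of ratios past the threshold in *Pld6* KO, 14, became 0 with a pseudocount of 0.1 or 0.5 and after rescaling, since at least 13 of 18 must reach the smallest p for any to pass.

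Signs changed for these differences, none of which was called. The log2 ratio of IAPLTR2_Mm to IAPLTR2a in *Pld6* KO went from 0.03 to -0.42 and -0.15 with pseudocounts of 0.1 and 0.5, to -0.042 after rescaling, to -0.13 with pooled controls and to between -0.052 and 0.13 without 1 library; in *Dnmt3l* KO it went from 0.09 to -0.10 with pooled controls and to -0.11 with a pseudocount of 0.1. IAPLTR2_Mm in *Dnmt3l* heterozygotes went from -0.019 to 0.036 after rescaling and 0.062 with the replicate block, and to between -0.17 and 0.14 without 1 library. In *Pld6* heterozygotes, leaving out 1 library gave -0.016 to 0.24 for IAPLTR2a2_Mm, -0.053 to 0.49 for IAPLTR2_Mm, -0.29 to 0.13 for IAPLTR2a and -0.59 to 0.085 for IAPLTR2b.

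Same-numbered *Pld6* libraries did not deviate together (r from -0.30 to 0.11 over 3 pairs) and the 2 *Dnmt3l* pairs gave 0.093 and 0.13. The deviations of 2 WT libraries from their mean mirror each other, so pairing in the *Dnmt3l* line could not be settled. With the replicate block, 3 members were called in *Pld6* KO, 4 in *Dnmt3l* KO and 1 for the difference between mutants, as without it. Each exact test without 1 library could not reach the threshold. Depth is unknown, so the number of reads behind values near 1 RPM, as of IAPLTR2a and IAPLTR2b in WT, is too.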
